A study of Homo sapiens with 9 samples.

Results

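The AP-1 and EGR immediate early factors were followed as 10 genes, chosen by symbol: the FOS family (FOS, FOSB, FOSL1, FOSL2), the JUN family (JUN, JUNB, JUND) and EGR1, EGR2 and EGR3. All 10 had a row of their own among the 24069 rows of the expression table, and none fell in a locus that combines several genes. EGR3 did not reach the level required for testing, which left 9 members among 12011 tested rows. The cells studied were PR2 and PR1, ponatinib-resistant derivatives of the human lung adenocarcinoma line LC-2/ad, both labelled as grown in 200 nM ponatinib, with the parental line as their control. LC-2/ad is an established line with a CCDC6-RET fusion, and ponatinib blocks RET among several other kinases. No drug is given in the labels of the parental line, so drug exposure and resistance cannot be told apart in any comparison with it. There were 3 libraries per group, named A, B and C, and the members were compared between groups and between letters. Whether the letters stand for separate cultures is not stated, and the p-values here rest on a spread between libraries that may be technical.

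AP-1 is a dimer of a JUN protein with a FOS or another JUN protein, both of the basic leucine zipper (bZIP) kind, and binds the motif TGANTCA. EGR proteins are zinc finger factors that bind GC-rich sites and are held in check by the corepressors NAB1 and NAB2. Most of these genes are immediate early genes: growth factors and stress switch them on within minutes through ERK, JNK and the factor SRF, without new protein synthesis, and many of their transcripts are short-lived. In epithelial tumour cells ERK signalling downstream of receptor kinases such as RET is a well-known inducer of FOS, EGR1 and FOSL1.

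The values are taken as FPKM, fragment counts divided by transcript length and by library size, which is meant to make genes comparable. TUBB, BRD2, FLOT1 and DDR1, which most cells express, were listed at 0 in every library, so levels of different genes are compared with caution. The libraries summed to between 571570 and 686460 FPKM and held 11263 to 11629 rows at 1 FPKM or more. Log2 values correlated at 0.961 to 0.985 within groups and at 0.883 to 0.949 between groups, and no libraries were identical. Relative depth ran from 0.758 to 1, against parental A. All 8 genes fixed as epithelial identity markers reached a mean of 1 FPKM, while 1 of 6 fibroblast (COL1A1), 0 of 3 endothelial and 1 of 5 blood markers (CD14) did. The summed blood markers were 0.701 to 1.22 FPKM in PR2, 1.19 to 1.76 in PR1 and 3.59 to 9.15 in parental cells, with PTPRC, CD3E, LYZ and HBB below 1 FPKM, and the summed fibroblast markers 9.48 to 10.8, 5.98 to 8.43 and 3.64 to 8.04 FPKM. Their part in the comparisons with parental cells was not tested. Library PR2 C stood apart from PR2 A and B for several members, and the comparisons it bears on most are given with and without it.

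Promoter sequences of the members that the results turn on are given first. FOS and EGR1 are shown because both were lowest in PR2 A and B and far higher in PR2 C, and FOSL2 because it separated PR2 from the other groups. They run from 250 bases before to 20 bases after the RefSeq start in GRCh38.p14, 5′ to 3′, with motif matches in capitals: an EGR site and then a pair of CArG boxes (the SRF site) in EGR1, and an AP-1 site in FOSL2. FOS lies at chr14:75278578-75278847, EGR1 at chr5:138465229-138465498 and FOSL2 at chr2:28392608-28392877, all on the plus strand.
FOS: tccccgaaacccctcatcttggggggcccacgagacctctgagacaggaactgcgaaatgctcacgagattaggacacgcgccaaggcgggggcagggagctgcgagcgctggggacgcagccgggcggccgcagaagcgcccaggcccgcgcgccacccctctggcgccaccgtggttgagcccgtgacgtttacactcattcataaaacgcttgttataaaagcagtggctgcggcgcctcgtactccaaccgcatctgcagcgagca
EGR1: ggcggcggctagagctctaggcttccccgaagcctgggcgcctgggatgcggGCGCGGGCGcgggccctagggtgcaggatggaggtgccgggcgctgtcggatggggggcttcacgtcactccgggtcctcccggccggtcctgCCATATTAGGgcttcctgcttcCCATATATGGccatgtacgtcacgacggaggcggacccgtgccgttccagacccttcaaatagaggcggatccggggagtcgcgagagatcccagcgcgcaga
FOSL2: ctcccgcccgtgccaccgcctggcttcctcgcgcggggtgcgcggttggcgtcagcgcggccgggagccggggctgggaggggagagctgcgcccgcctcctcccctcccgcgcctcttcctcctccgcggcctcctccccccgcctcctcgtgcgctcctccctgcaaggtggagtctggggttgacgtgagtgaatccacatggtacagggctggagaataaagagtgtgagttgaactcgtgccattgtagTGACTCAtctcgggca

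Motifs were searched on both strands from 250 bases before to 50 bases after the start, in the 8 members with an entry and in all 35116 promoters of the table. The EGR1 window held CArG boxes (CC, then 6 bases of A or T, then GG) at bases -105 to -96 and -83 to -74, a motif in 1.29% of all promoters. It also held an EGR site (GCGNGGGCG) at -198 to -190, a motif in 9.43% of them. The FOSL2 window held an AP-1 site (TGANTCA) at bases 5 to 11 after the start, against 7.71% of all promoters. The JUND window held a CRE (TGACGTCA), the site of CREB and ATF factors, at -200 to -193, against 1.85%. The other windows, that of FOS among them, held none of the 4 motifs, and none of the matches overlapped. Sites beyond the window or in other forms were not searched, so these genes may still have them. FOSL1 and EGR3 are named only. A match describes the letters of the window and is neither a binding site nor a cause of the values below.

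In PR2 against parental cells, FOSL1 and FOSL2 rose and no member fell: 2 of 9 members passed the threshold (limma adjusted p under 0.05), against 23.4% of the 12011 tested rows. In PR1 against parental cells none of the 9 passed, against 15.5% of tested rows, while FOSL1 alone had an unadjusted p under 0.05, against 29.6% of tested rows. These fits did not use the letters, and with the letter added as a block FOSL1 passed in PR1, among 3088 rows. In PR2 against PR1, FOSL2 passed, 1 of 9 against 19.9%. Without PR2 C, 3 of the 8 members then tested passed in each comparison that involves PR2: FOS and EGR1 downward and FOSL2 upward. Of the 11869 rows then tested, 1670 passed against parental cells and 1307 against PR1. Without the 3 C libraries FOS and EGR1 passed in PR2 against parental cells and FOS in PR2 against PR1, and the calls of FOSL1 and FOSL2 were lost. Rows that passed then numbered 701 and 424, in that order. With all libraries the members' shares are near the background or below it, so the counts describe single genes and not the set. Without PR2 C their share exceeded that of all rows, on 3 members, and the set was not tested. PR2 C was singled out by its own values, so the calls of FOS and EGR1 without it are no test of a fall. The comparisons share libraries, so their counts are not independent. The median log2 fold change of the 9 members was -0.12 in PR2 against parental cells, 0.25 in PR1 against parental cells and 0.02 in PR2 against PR1, beside 0.03, 0.05 and 0.00 over all tested rows.

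**Figure D1:**
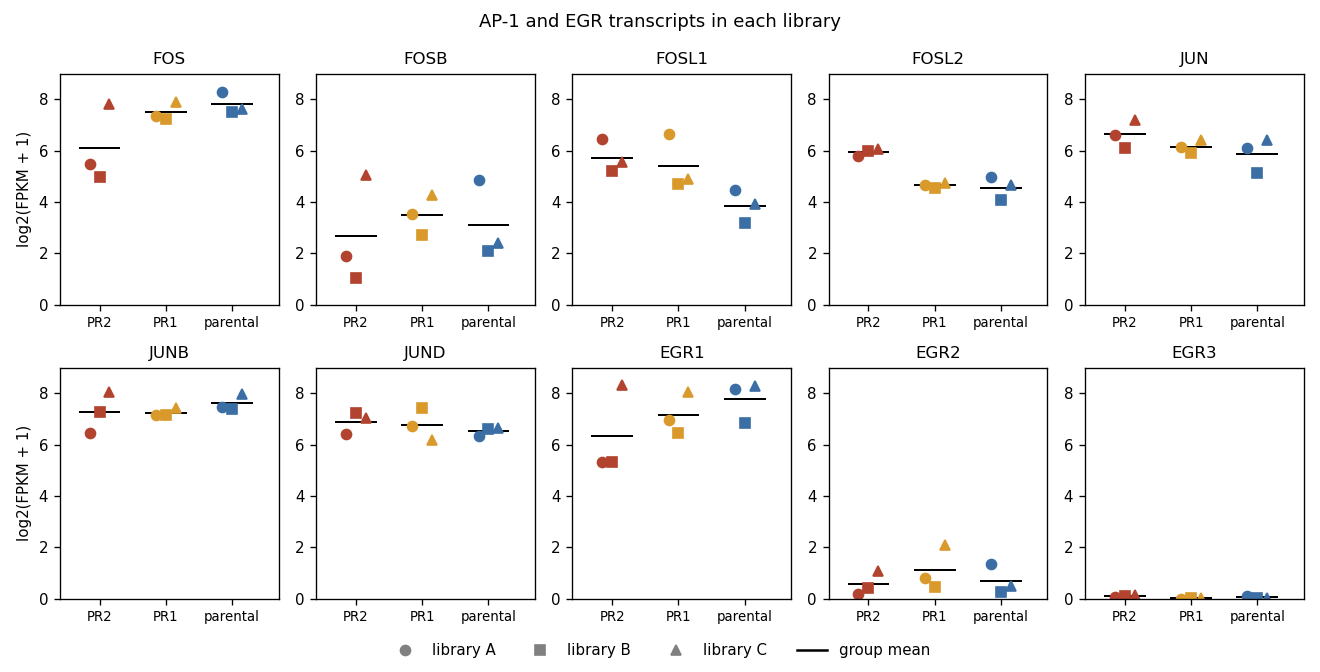
Expression of the 10 members as log2(FPKM + 1) on the vertical axis, in PR2, PR1 and parental cells from left to right. Circles, squares and triangles are libraries A, B and C and the line is the mean of 3 libraries. PR2 lies apart from both other groups for FOSL2, and PR2 C lies far above PR2 A and B for FOS, FOSB and EGR1.

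FOS, the founding member of the family, had 44.0, 30.5 and 224 FPKM in PR2 A, B and C, 162, 151 and 237 FPKM in PR1 and 308, 182 and 193 FPKM in parental cells. PR2 A and B lay below every library of the other groups, while PR2 C lay within the range of both. The means were 99.5 ± 108 FPKM in PR2, 183 ± 46.7 in PR1 and 228 ± 69.4 in parental cells (SD, n = 3 each). FOS differed by a log2 of -1.70 ± 0.60 (SE) in PR2 against parental cells and missed the threshold (limma adjusted p = 0.065). Without PR2 C the difference was -2.56 and passed it (limma adjusted p = 0.00066), as did that between PR2 and PR1, which went to -2.26 (limma adjusted p = 0.002) against -1.40 with all libraries (limma adjusted p = 0.13). PR2 C was singled out by its own values, so these p-values are no test of a fall. Without PR2 A or PR2 B the difference from parental cells was -1.40 or -1.14 and missed the threshold (limma adjusted p = 0.16 and 0.2). PR1 and parental cells overlapped for FOS, with a log2 difference of -0.30 (limma adjusted p = 0.79).

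FOSB, the closest relative of FOS, was about an order of magnitude lower. It had 2.67, 1.06 and 32.5 FPKM in PR2 A, B and C, 10.5, 5.56 and 18.3 FPKM in PR1 and 27.6, 3.29 and 4.30 FPKM in parental cells. The highest libraries were PR2 C and parental A, and the 3 groups overlapped throughout. Its log2 differences were -0.45 in PR2 and 0.39 in PR1 against parental cells and -0.84 in PR2 against PR1, all short of the threshold (limma adjusted p = 0.78, 0.84 and 0.60). Without PR2 C the FOSB difference was -1.66 in PR2 against parental cells and -2.04 against PR1, which missed the threshold as well (limma adjusted p = 0.18 and 0.12).

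FOSL1 encodes FRA-1, a FOS relative without the strong activation domain of FOS that is linked to invasion of carcinoma cells. It had 85.9, 35.8 and 45.7 FPKM in PR2 A, B and C, 99.1, 24.7 and 29.0 FPKM in PR1 and 20.95, 7.94 and 14.1 FPKM in parental cells. Every library of either derivative lay above every parental library, a pattern shown upward by 22.3% of tested rows for PR2 and by 16.6% for PR1. The means were 55.8 ± 26.5 FPKM in PR2, 50.9 ± 41.7 in PR1 and 14.3 ± 6.51 in parental cells. FOSL1 rose in PR2 by a log2 of 1.88 ± 0.53 against parental cells (limma adjusted p = 0.027). The call was lost without parental B (limma adjusted p = 0.11), parental C (0.069), PR2 A (0.075) or PR2 C (0.061), with log2 values of 1.53 to 2.19 over all single libraries left out. It was also lost without the 3 C libraries, at a log2 of 2.01 (limma adjusted p = 0.17), and without the 3 B libraries, at 1.80 (limma adjusted p = 0.11).

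In PR1 the FOSL1 difference of 1.57 ± 0.53 missed the threshold (limma adjusted p = 0.073). The letters paired the libraries of PR1 and parental cells, and FOSL1 passed with the letter as a block (limma adjusted p = 0.0014). That block was fitted over all 9 libraries, so it also rests on PR2, whose letters were not taken as pairs with parental cells. FOSL1 also passed without the 3 A libraries, at a log2 of 1.26 (limma adjusted p = 0.017). PR2 and PR1 overlapped for FOSL1, with a log2 difference of 0.32 (limma adjusted p = 0.73). Within each letter, FOSL1 was higher in PR2 than in parental cells by 1.99, 2.04 and 1.62 for A, B and C, and higher in PR1 by 2.19, 1.52 and 0.99.

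FOSL2, which encodes FRA-2, had 53.8, 61.7 and 66.3 FPKM in PR2 A, B and C, 24.5, 22.6 and 25.5 FPKM in PR1 and 30.1, 15.6 and 24.3 FPKM in parental cells. The lowest PR2 library lay well above the highest library of both other groups, and PR1 lay inside the parental range. The means were 60.6 ± 6.32 FPKM in PR2, 24.2 ± 1.45 in PR1 and 23.3 ± 7.27 in parental cells. FOSL2 rose in PR2 by a log2 of 1.38 ± 0.21 against parental cells and of 1.29 ± 0.21 against PR1 (limma adjusted p = 0.0013 and 0.0027). It differed by 0.09 between PR1 and parental cells (limma adjusted p = 0.81). It was the one member that stood apart between PR2 and PR1, where 20.4% of tested rows were higher without overlap. Both calls held with any single library left out (limma adjusted p of at most 0.0083 and 0.015), and were lost without the 3 C libraries (limma adjusted p = 0.052 and 0.08), an alternative chosen after the data were seen.

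**Figure D2:**
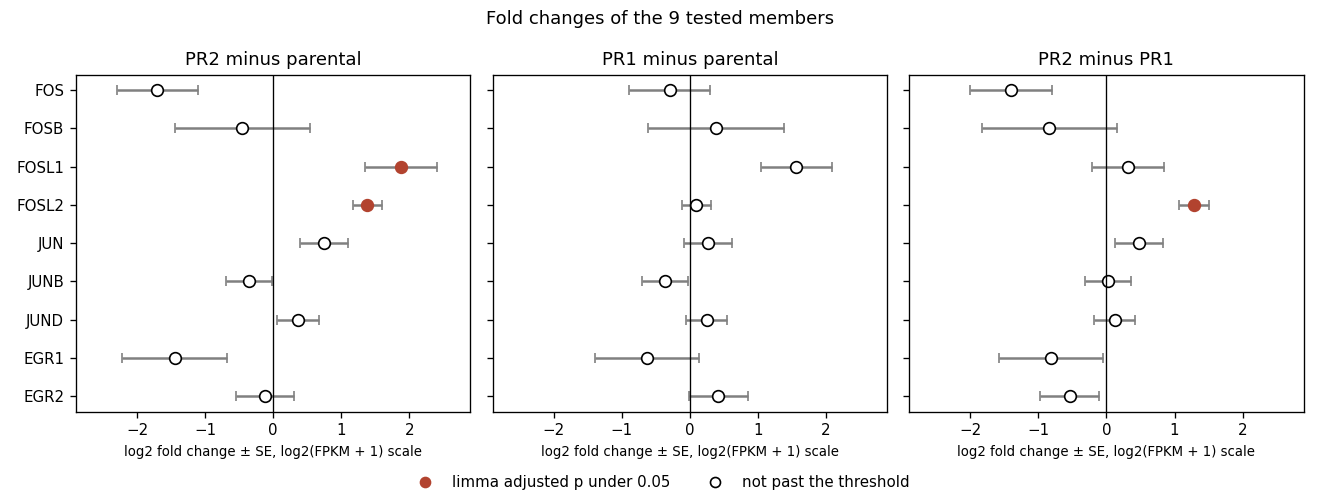
Log2 fold changes of the 9 tested members with their standard errors on the horizontal axis, for PR2 minus parental, PR1 minus parental and PR2 minus PR1. Filled points passed a limma adjusted p of 0.05: FOSL1 (1.88) and FOSL2 (1.38) in the first panel and FOSL2 (1.29) in the last.

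The FOS-family RNA therefore had another make-up in the PR2 A and B libraries. FOSL1 and FOSL2 together made up 74.9%, 75.6% and 30.4% of the summed FOS-family FPKM in PR2 A, B and C, 41.7%, 23.2% and 17.6% in PR1, and 13.2%, 11.3% and 16.3% in parental cells. All 6 libraries of the derivatives lay above the highest parental library, the nearest, PR1 C, by little. The summed FOS-family level itself was 129 to 368 FPKM in PR2, 204 to 310 FPKM in PR1 and 209 to 386 FPKM in parental cells, ranges that overlapped. These shares are sums over the members, rest on FPKM levels of different genes being comparable, and were not tested.

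**Figure D3:**
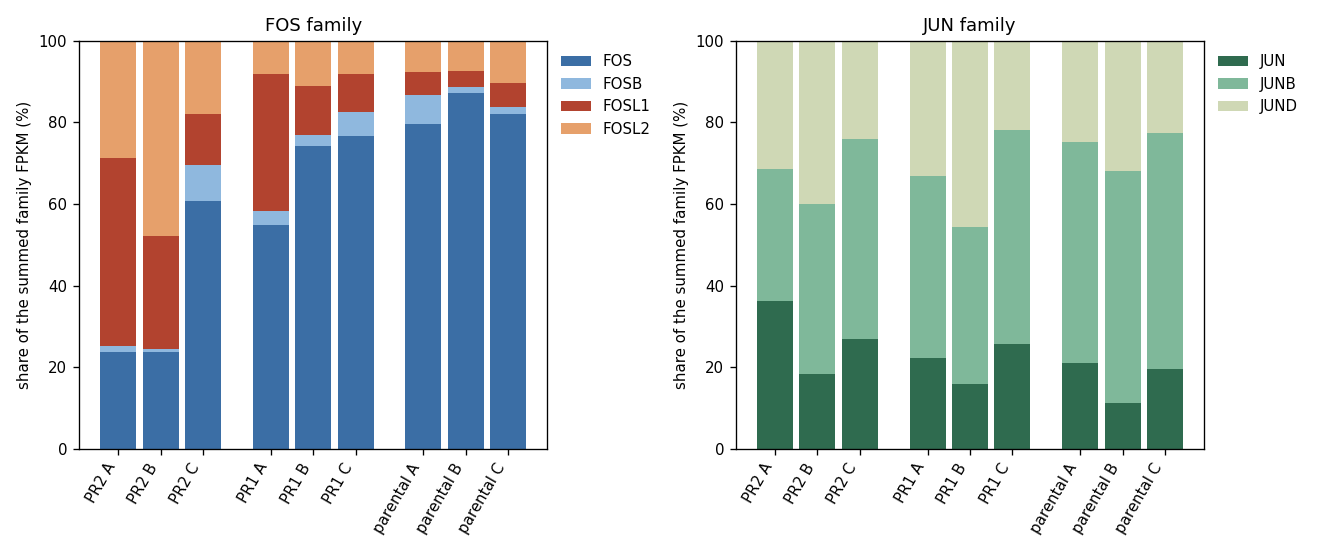
Share of each gene in the summed FPKM of the FOS family (left) and the JUN family (right), in percent, for each library of PR2, PR1 and parental cells. FOS held 23.6%, 23.6% and 60.8% of the FOS family in PR2 A, B and C, against 79.6% to 87.1% in parental cells.

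The JUN family had between 33.5 and 262 FPKM per gene and library. None of its 3 members passed the threshold in any comparison of groups fitted without the letter as a block. JUN, the JNK substrate that pairs with FOS proteins, had 97.5, 67.2 and 145 FPKM in PR2 A, B and C, 69.8, 59.3 and 83.1 FPKM in PR1 and 67.9, 33.5 and 85.1 FPKM in parental cells. Its groups overlapped, although PR2 was higher than parental cells within each letter, by a log2 of 0.52, 0.98 and 0.76. Over all libraries that difference was 0.75 ± 0.35 (limma adjusted p = 0.16), and those of PR1 against parental cells and PR2 against PR1 were 0.27 and 0.48 (limma adjusted p = 0.66 and 0.38).

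JUNB, which in many settings acts against JUN, had 87.5, 154 and 262 FPKM in PR2 A, B and C, 140.2, 143 and 171 FPKM in PR1 and 174, 169 and 252 FPKM in parental cells. PR2 A was the lowest library and PR2 C the highest, so PR2 spanned both other groups. JUND, the member that most cells express without a stimulus, had 84.7, 147 and 130.0 FPKM in PR2 A, B and C, 104, 170 and 71.3 FPKM in PR1 and 80.4, 95.2 and 98.6 FPKM in parental cells. Its 3 groups overlapped as well. In PR2 against parental cells JUNB differed by a log2 of -0.35 and JUND by 0.36 (limma adjusted p = 0.50 and 0.43). Of the JUN-family sum, JUNB made up 32.4% to 48.8% in PR2, 38.5% to 52.5% in PR1 and 54.0% to 57.9% in parental cells, so every library of a derivative lay below every parental library in this untested share.

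EGR1, the zinc finger factor that ERK and SRF switch on, had 39.0, 38.7 and 319 FPKM in PR2 A, B and C, 122, 85.5 and 261 FPKM in PR1 and 287, 114 and 311 FPKM in parental cells. PR2 A and B were the lowest of the 9 libraries and PR2 C was the highest. The means were 132 ± 162 FPKM in PR2, 156 ± 92.5 in PR1 and 237 ± 107 in parental cells. The log2 difference of -1.45 ± 0.77 in PR2 against parental cells missed the threshold (limma adjusted p = 0.20), as did those of -0.63 in PR1 against parental cells and -0.82 in PR2 against PR1 (limma adjusted p = 0.63 and 0.50). Without PR2 C, EGR1 fell in PR2 by 2.45 on the log2 scale against parental cells and by 1.82 against PR1 (limma adjusted p = 0.012 and 0.049). With any other single library left out, EGR1 passed in neither comparison. PR2 C was singled out by its own values, so these p-values are no test of a fall.

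EGR2, known as a regulator of myelination, was near the lower limit of the tested range. It had 0.142, 0.334 and 1.11 FPKM in PR2 A, B and C, 0.719, 0.353 and 3.28 FPKM in PR1 and 1.52, 0.190 and 0.386 FPKM in parental cells. The groups overlapped, and its log2 differences of -0.12 in PR2 and 0.42 in PR1 against parental cells missed the threshold (limma adjusted p = 0.87 and 0.57). EGR3 had at most 0.0936 FPKM in any PR2 library, 0.0258 in PR1 and 0.0830 in parental cells, and PR1 A was listed at 0. PR1 B and C had 0.00822 and 0.0258 FPKM, and whether the 0 is a failed estimate or a level near the floor was not tested.

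**Figure D4:**
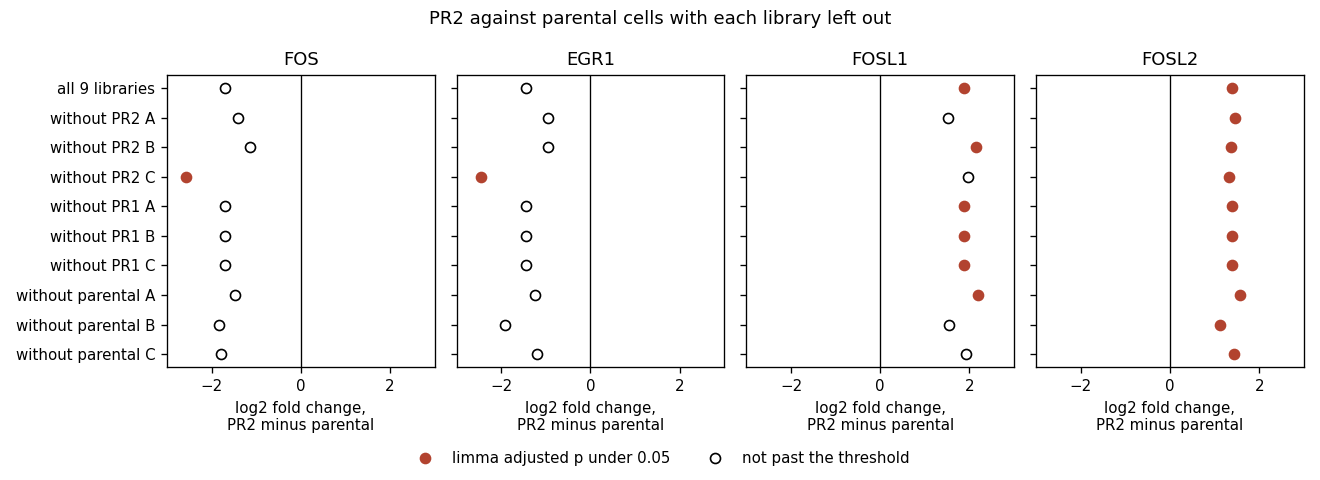
Log2 fold change of FOS, EGR1, FOSL1 and FOSL2 in PR2 minus parental cells on the horizontal axis, with all 9 libraries and without each library in turn. Filled points passed a limma adjusted p of 0.05. Among the fits shown, FOS and EGR1 passed only without PR2 C (-2.56 and -2.45), and FOSL2 passed in all of them.

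PR2 C stood apart for several immediate early genes within PR2. The SD of log2 values over the 3 PR2 libraries was 1.51 for FOS, 1.73 for EGR1 and 2.12 for FOSB, above that of 99.6%, 99.7% and 99.8% of the 8499 rows at a mean of 5 FPKM or more, whose median SD was 0.19. FOSL2 had an SD of 0.15, above 38.0% of rows. Wide spreads were not limited to PR2. In PR1 the SD was 1.07 for FOSL1, 0.82 for EGR1 and 0.78 for FOSB, above at least 98.7% of rows each, and in parental cells it was 1.50 for FOSB and 0.80 for EGR1, above 99.8% and 97.9%. For FOS it was 0.35 in PR1 and 0.41 in parental cells. Rows at least 2-fold above both other PR2 libraries in PR2 C numbered 25, or 0.208% of tested rows. FOS, FOSB and EGR1 were among them, with 4 of 26 tested genes of a list of other immediate early genes (ATF3, ZFP36, DUSP1 and CTGF). The other 18 included HES1, INSIG1, SCD, HMGCS1 and DUSP6, and several small nucleolar RNAs that were listed at 0 in PR2 A and B. In PR1 C, EGR1 and EGR2 of the 9 members met the same 2-fold rule, against 0.108% of tested rows, and in parental C none did, against 0.491%. What sets PR2 C apart was not tested.

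**Figure D5:**
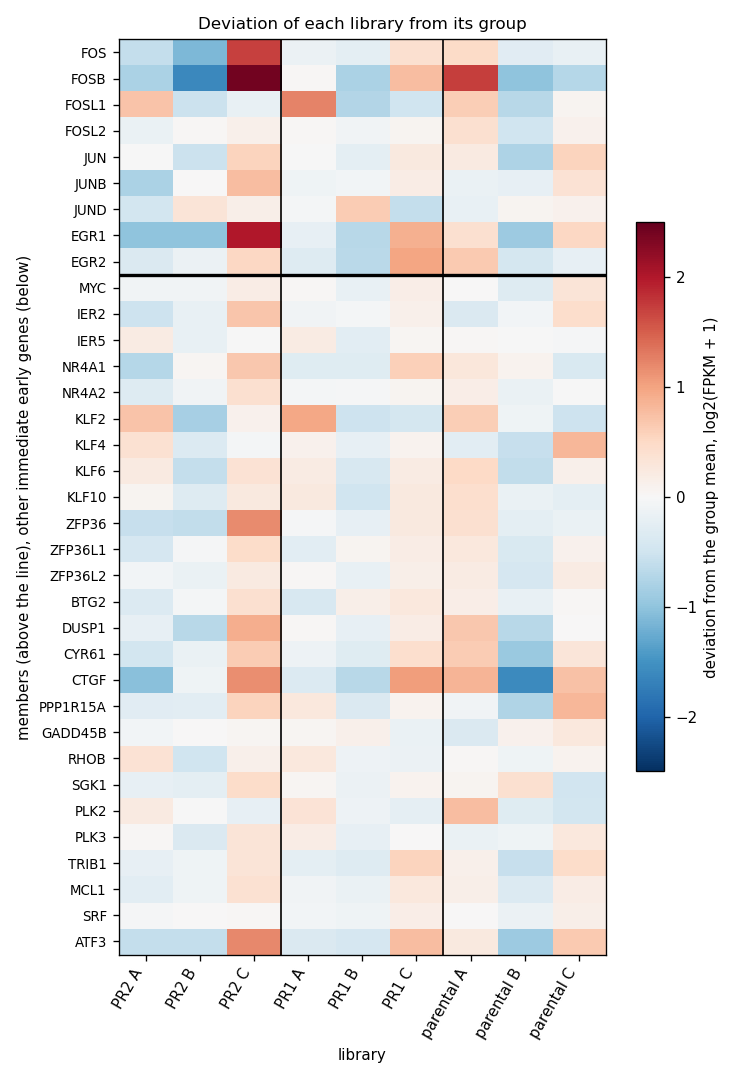
Deviation of each library from the mean of its group in log2(FPKM + 1), in colour, for the 9 tested members (above the line) and 26 other immediate early genes (below it), with the libraries of PR2, PR1 and parental cells as columns. The strongest colours are FOSB and EGR1 in PR2 C (2.40 and 2.00), followed by FOSB in parental A and FOS in PR2 C (both 1.72).

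Between letters, the members were lower in B than in C. Of the 9 tested members, 8 were lower in B than in C in all 3 groups, against 31.5% of tested rows, and JUND was the exception. In the fit with group and letter the median log2 difference of B minus C was -0.85 over the members, -0.42 over the 26 tested other immediate early genes and -0.05 over all tested rows. Without PR2 C it was -0.40 over the 8 members then tested, 7 of them below 0, and -0.06 over all rows. Then 2 of the 8 members stood at an unadjusted p under 0.05, against 2037 rows (17.2%). In PR1 and parental cells alone, 8 of 9 members were lower in B than in C in both groups, against 40.9% of tested rows. No row passed the threshold for B against C (limma, 0.0% of tested rows). At an unadjusted p under 0.05 stood 1888 rows (15.7%), and 6 members among them: EGR1, EGR2, FOS, FOSB, JUN and JUNB. EGR1 had B minus C differences of -3.01 in PR2, -1.60 in PR1 and -1.43 in parental cells, and of -2.01 ± 0.44 over the groups (limma adjusted p = 0.27). For A against C no row passed either (0.0%), with 2447 rows (20.4%) and 3 members (EGR1, FOSL1 and JUNB) at an unadjusted p under 0.05.

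A against B gave 1 called member, FOSL1, against 11.6% of tested rows. FOSL1 was higher in A than in B by a log2 of 1.24 in PR2, 1.96 in PR1 and 1.30 in parental cells, and by 1.50 ± 0.21 over the groups (limma adjusted p = 0.022). The call was lost without parental B, PR1 B or PR2 B (limma adjusted p = 0.068, 0.16 and 0.096). FOS, FOSB, FOSL1, JUN and EGR1 were higher in A than in B in all 3 groups, 5 of 9 members against 33.1% of tested rows. The letters carry no condition in the labels, so these values describe differences between libraries.

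By the root mean square difference of centred log2 profiles over the 9 libraries, EGR1 was the nearest member to FOS (0.49), where the median over 8040 other rows was 1.10. A nearest row lies below the median by selection, so these distances rank rows and are no test of likeness. In parental cells FOS and EGR1 parted, with B minus C at -0.09 and -1.43. Outside the members, HES1, a repressor induced by Notch, was nearest to FOS (0.51), followed by ZFP36, which destabilises AU-rich transcripts (0.57), and the cytochrome P450 gene CYP1B1 (0.68). The same 3 rows were nearest to EGR1 (0.63, 0.65 and 0.67). HES1 had 6.17, 7.21 and 26.0 FPKM in PR2 A, B and C, 28.1, 21.0 and 51.0 FPKM in PR1 and 63.3, 57.4 and 72.7 FPKM in parental cells, with PR2 A and B lowest, as for FOS.

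FOSL1 had other neighbours, among them the integrin subunit gene ITGA6 (0.27) and PDLIM2 (0.31), against a median of 1.06. PDLIM2 had 31.1, 14.2 and 11.6 FPKM in PR2 A, B and C, 32.0, 12.7 and 13.9 FPKM in PR1 and 6.94, 3.84 and 4.97 FPKM in parental cells, and its A library was the highest of each group. Nearest to FOSL2 were the desmosomal cadherin gene DSG2 (0.20), DUSP10, a phosphatase of JNK and p38 (0.21), and the SRC-family kinase gene YES1 (0.21). DUSP10 had 23.9, 24.1 and 27.7 FPKM in PR2, 9.51, 8.75 and 8.48 FPKM in PR1 and 15.2, 8.72 and 8.54 FPKM in parental cells.

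Genes around the members were read from 7 lists. Their counts stand beside the shares of all tested rows that passed: 23.4% in PR2 against parental cells, 15.5% in PR1 against parental cells and 19.9% in PR2 against PR1. No list was tested as a set, so the calls are of single genes. Of 9 tested bZIP partners of FOS and JUN proteins, 3 passed downward and 0 upward in PR2 against parental cells, and 1 downward in PR1 against parental cells. MAFF and BATF were among those lower in PR2, with log2 fold changes of -0.72 and -0.61 and limma adjusted p = 0.036 and 0.023, and each lost its call when 1 of several libraries was left out (limma adjusted p as high as 0.099 and 0.085). Between PR2 and PR1, MAFG passed upward and MAFF and BATF downward. The median over the tested partners was a log2 of 0.25, -0.05 and 0.05 in these 3 comparisons.

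Both tested EGR corepressors fell in PR2 against parental cells, where 23.4% of all tested rows passed. NAB2, a corepressor of EGR1 that EGR1 itself induces, had 8.56, 9.63 and 11.3 FPKM in PR2 A, B and C, 6.88, 6.50 and 6.28 FPKM in PR1 and 20.0, 19.6 and 31.3 FPKM in parental cells. Every library of a derivative lay below every parental library, a pattern whose share over all tested rows is not reported here. NAB2 fell by 1.16 in PR2 and by 1.68 in PR1 on the log2 scale against parental cells (limma adjusted p = 0.0018 and 0.00041). NAB1 fell by 0.69 in PR2 (limma adjusted p = 0.011). These calls held with any single library left out. EGR4 and WT1, the other entries of the list, did not reach the level for testing.

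Of 7 tested genes for SRF and its cofactors, ELK3 and MKL1 rose in PR2 against parental cells, MKL2 in PR1, and MKL1 in PR2 against PR1. Over all tested rows 23.4%, 15.5% and 19.9% passed in these comparisons. MKL1, an actin-regulated SRF coactivator, had 14.5, 13.6 and 14.4 FPKM in PR2, 8.11, 8.70 and 9.27 FPKM in PR1 and 9.72, 7.48 and 7.90 FPKM in parental cells. It rose in PR2 by 0.70 against parental cells and by 0.65 against PR1 (limma adjusted p = 0.0053 and 0.01), and held with any single library left out. The calls of ELK3 and MKL2 did not (limma adjusted p of up to 0.13 and 0.14). SRF itself did not pass, at a log2 of -0.20 in PR2 and 0.18 in PR1 (limma adjusted p = 0.34 and 0.45).

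Among 9 tested JNK and ERK pathway kinases, MAPK8, RPS6KA1 and MAP2K4 rose in PR2 against parental cells and none fell, where 23.4% of all tested rows passed. MAPK8, the gene of JNK1, rose by 0.84 and MAP2K4, a kinase that activates JNK, by 0.66 (limma adjusted p = 0.0027 and 0.0097). RPS6KA1, the gene of RSK1, rose in PR1 by 0.96 (limma adjusted p = 0.0089). Its rise in PR2 was lost without any of 4 single libraries (limma adjusted p as high as 0.079). In PR1 against parental cells RPS6KA5 also passed upward and MAPK9 downward. MAPK8 and MAP2K4 passed upward in PR2 against PR1. Of these 4 calls none held with every single library left out. Transcript levels say nothing about kinase activity.

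Other immediate early genes did not move as a block. In PR2 against parental cells, 4 of 26 rose (CYR61, PLK2, KLF6 and GADD45B) and 3 fell (SGK1, IER5 and BTG2), where 23.4% of all tested rows passed. Each of these calls held with any single library left out. CYR61, a matricellular protein gene driven by SRF and YAP, had 105, 127 and 222 FPKM in PR2 A, B and C, 116, 104 and 171 FPKM in PR1 and 35.8, 11.4 and 28.0 FPKM in parental cells. It rose by 2.61 in PR2 and by 2.44 in PR1 (limma adjusted p = 0.0013 and 0.0033). The kinase gene SGK1 fell by 1.65 and 1.70 (limma adjusted p = 0.0012 and 0.0018). In PR1, CTGF also rose, by 2.75 (limma adjusted p = 0.031, a call lost in the absence of PR1 A, PR1 C or parental B). In PR2 against PR1, 2 rose and 3 fell, and none of these 5 calls held with every single library left out. IER3 was listed at 0 in every library. So were TUBB, BRD2, FLOT1 and DDR1, which most cells express, so such a 0 need not mean absence.

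Genes with textbook AP-1 sites went both ways in PR2: 6 of 16 tested rose and 3 fell against parental cells, where 23.4% of all tested rows passed. The urokinase receptor gene PLAUR and HBEGF, an EGFR ligand, rose by 1.70 and 1.59 (limma adjusted p = 0.00068 and 0.0042). HBEGF had 19.6, 15.7 and 16.5 FPKM in PR2, 12.9, 7.08 and 8.04 FPKM in PR1 and 4.13, 3.32 and 8.86 FPKM in parental cells. The collagenase gene MMP1 had 0.509, 0.887 and 0.890 FPKM in PR2, 48.8, 19.7 and 33.3 FPKM in PR1 and 62.9, 29.1 and 8.50 FPKM in parental cells, and fell by 3.91 (limma adjusted p = 0.00094). The chemokine gene CXCL8 fell by 2.43 (limma adjusted p = 0.00037). In PR1 against parental cells 4 rose and 1 fell, and none of the 5 calls held with every single library left out. Against PR1, 3 rose and 4 fell in PR2, and TGFB1, MMP1 and CXCL8 were among the calls that held with any single library left out.

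Of 9 tested genes with textbook EGR1 sites, 6 rose and 1 fell in PR2 against parental cells, where 23.4% of all tested rows passed. All 7 calls held with any single library left out. THBS1 and FN1, which encode matrix proteins, rose by 4.22 and 3.72, and the growth factor gene PDGFB by 2.48 (limma adjusted p = 0.00063, 0.00082 and 0.00054). The one that fell was NAB2. In PR1 against parental cells 3 rose (THBS1, FN1 and the heparanase gene HPSE) and NAB2 fell. HPSE rose by 1.67 (limma adjusted p = 0.0013), and the calls of THBS1 and FN1 were lost without some single libraries (limma adjusted p as high as 0.099 and 0.15). Against PR1, 5 rose and none fell in PR2, of which PDGFB, PDGFA and TGFB1 held. The median log2 fold change over the 9 was 1.22, 0.35 and 1.29 in these 3 comparisons, beside 0.03, 0.05 and 0.00 over all tested rows. It was 0.30, 0.12 and 0.24 over the genes with AP-1 sites and 0.04, -0.06 and 0.05 over the other immediate early genes. The lists were chosen with earlier results of these data known, so these medians are no test of a set. Binding of EGR1 was not measured. With all libraries and without the letter as a block, EGR1 itself passed in none of the 3.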

How the data were processed

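RNA from 9 libraries was measured by sequencing. The labels' protocols give column isolation of RNA (RNeasy) and a TruSeq library kit. Alignment and quantification used tools listed in the submitters' processing notes: TopHat2 (2.0.14), Cufflinks (2.2.1) and Cuffdiff (2.2.1), with GRCh37 and hg19 as builds. The annotation, read numbers and strand setting were not stated in those sources, so reads of a gene and of an overlapping antisense transcript cannot be told apart. The deposited table holds FPKM values, a unit inferred from its values and the named tools because its header states none, and the absolute depth behind each value is unknown.

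Values were analysed as log2(FPKM + 1), a scale that understates the change of low genes. Rows that reached 1 FPKM in 3 or more of the 9 libraries were tested with limma 3.58.1 (intensity trend) in R 4.3.3, with 1 mean per group over all 9 libraries for PR2 minus parental, PR1 minus parental and PR2 minus PR1, and with group and letter terms for the 3 comparisons of letters. Tests were two-sided and adjusted by Benjamini-Hochberg over all 12011 rows, and called rows had an adjusted p under 0.05. The steps were tested on simulated data. The members and the 7 gene lists were chosen with earlier results of these data known.

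All 10 members are named. Other genes come from the lists, at most the 4 largest called rises and 4 largest called falls per list and comparison and any gene whose value a result turns on, and from the 3 rows nearest to a member among those at a mean of 5 FPKM or more. The rows that marked PR2 C were named after their values were seen. Entries without a tested row or in a combined locus were left out of the counts. Some genes that this rule named are not reported here.

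Pairing by letter was judged from how deviations from the group means correlated between libraries of the same letter. The correlations were 0.31, 0.48 and 0.16 (A, B and C) for PR1 with parental cells and 0.53, 0.54 and 0.25 for PR2 with PR1, so the letters paired those libraries. For PR2 with parental cells the C value was 0.014, and the letters were not taken as pairs. Alternatives covered the pseudocount, filter, scaling, trend, groups in the fit, the block, each library left out, and each letter left out. Leaving out the 3 B or the 3 C libraries was chosen after the data were seen.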

Additional observations from a re-analysis of the deposited data

Results flagged for a closer look

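FOSL2 stood apart because its effects against the same parental libraries differed between PR2 and PR1. It was higher in PR2 than in PR1 by a log2 of 1.29 (limma adjusted p = 0.0027), with 60.6 ± 6.32 FPKM in PR2, 24.2 ± 1.45 FPKM in PR1 and 23.3 ± 7.27 FPKM in parental cells (SD, n = 3 each). PR2 was the higher of the pair within all 3 letters, by 1.10, 1.41 and 1.35 for A, B and C.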

How the results depend on the processing

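Of 915 fold changes of members under an alternative, 855 kept their direction and their side of the threshold, 14 gained it, 13 lost it and 33 changed sign, none of these 33 called in either fit. Where no cause is named, the cause was not tested. In PR2 against parental cells 1 member passed with no filter on low values or without the 3 B libraries, and 1 to 3 with single libraries left out. Without the 3 C libraries 2 passed, but they were EGR1 and FOS in place of FOSL1 (limma adjusted p = 0.17) and FOSL2 (0.052), and in PR2 against PR1 FOS took the place of FOSL2 (0.08). Called rows in PR2 against parental cells numbered 1811 at a 5 FPKM filter (fewer rows tested), 701 and 675 without the 3 C or the 3 B libraries but 3099 without the 3 A libraries, and 1670 to 2887 with single libraries left out, the fewest without PR2 C, with 1711 without parental B. In PR1 against parental cells 1 member passed without the 3 A libraries. Called rows numbered 1207 at the 5 FPKM filter, 228 and 222 without C or B, 2192 without A, and 1014 (without parental B) to 2016 with single libraries left out. In PR2 against PR1 1 to 3 members passed with single libraries left out, 3 without PR2 C. Called rows numbered 1573 at the 5 FPKM filter, 424 and 462 without C or B, 2154 without A, and 1307 (without PR2 C) to 2417.

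Between A and B 0 members and 0 rows passed with no filter, 0 to 1 members with single libraries left out, and 0 (without PR1 B) to 1885 rows. Between A and C 1 row passed at a pseudocount of 0.1, 6 with equal summed FPKM, and 0 to 769 rows and 0 to 2 members with single libraries left out, most without parental A. Between B and C it was 0 to 2 rows.

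Sign changes without the A libraries were FOSB in PR2 (0.80) and FOS in PR1 (0.012) against parental cells. Without the C libraries they were FOSB in PR1 against parental cells (-0.35) and JUNB (-0.28) and JUND (-0.25) in PR2 against PR1. Without the B libraries they were FOSL2 (-0.11) and JUND (-0.045) in PR1 against parental cells and JUNB (-0.029) in PR2 against PR1. With single libraries left out, log2 ranges crossed 0 for FOSB (-1.66 to 0.41), JUNB (-0.74 to 0.043) and EGR2 (-0.34 to 0.063) in PR2 against parental cells. They did so in PR1 for FOSB (-0.12 to 1.25), FOSL2 (-0.16 to 0.29), JUN (-0.12 to 0.54) and JUND (-0.077 to 0.54). In PR2 against PR1 it was FOSL1 (-0.048 to 0.93), JUNB (-0.37 to 0.41) and JUND (-0.18 to 0.44). Between letters it was JUNB for A minus B (-0.45 to 0.067) and FOS (-1.36 to 0.076), FOSB (-1.65 to 0.69), FOSL2 (-0.25 to 0.17) and JUND (-0.48 to 0.073) for A minus C.

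The replicate block was fitted over all 9 libraries. With it, 1 member (FOSL1) and 3088 rows passed in PR1 against parental cells, where the letters paired the libraries, and 3789 rows in PR2 against PR1. In PR2 against parental cells, where they were not taken as pairs, 5 members passed with the replicate block (EGR1, FOS, FOSL1, FOSL2 and JUN), and 5 of 6 libraries correlated best with their own letter, a hint from the data and not from the design. The block changed no other call of a member.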

Other observations

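Genes of the cholesterol synthesis pathway were among the rows at least 2-fold higher in PR2 C than in PR2 A and B, a pattern seen after the data were examined and not tested. INSIG1, a sterol sensor gene, had 12.4, 16.0 and 44.3 FPKM in PR2 A, B and C, 32.8, 29.5 and 48.7 FPKM in PR1 and 22.3, 23.8 and 13.95 FPKM in parental cells. HMGCS1, a synthesis enzyme gene, had 17.0, 14.7 and 37.5 FPKM in PR2, 43.2, 24.9 and 52.6 FPKM in PR1 and 20.4, 14.6 and 10.5 FPKM in parental cells. In both derivatives the C library was the highest of its group for both genes, while in parental cells it was the lowest.

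The ERK phosphatase gene DUSP6 was in the same set at another level. It had 6.29, 5.94 and 14.4 FPKM in PR2 A, B and C, 44.5, 62.5 and 82.7 FPKM in PR1 and 104, 148 and 191 FPKM in parental cells, so PR2 C stayed below every library of the other groups, unlike FOS and EGR1.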
